A study of Cucumis sativus with 6 samples.

Results

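Cellulose synthases and their relatives, the cellulose synthase-like proteins, were followed in the growing fruit of cucumber (Cucumis sativus). They were taken from the deposited gene table as every gene whose product description contains "cellulose synthase". This gave 42 of the 21317 genes of the table, on 7 chromosomes. Of these, 12 are named cellulose synthase and 30 cellulose synthase-like. The name was checked against the protein domains listed in the table: 36 of the 42 carry the cellulose synthase domain, and 11 of those 36 also carry a RING-type zinc finger. No other domain was looked for, so the synthase domain alone means here that no RING-type zinc finger was listed. A family letter is given for 4 genes only (A, A1, H1 and C1-2), so the other genes are called here by their identifiers and domains.

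The libraries came from the peel and the flesh of the inbred line YB, dissected from self-pollinated fruits at day 3, day 6 and day 9, in a study that by its title looked for genes related to astringency. The groups are peel at day 3, 6 and 9 and flesh at day 3, 6 and 9, with 1 library per group, each from a mix of 3 fruits. Levels are in FPKM, a unit that divides the fragments of a gene by its length and by the depth of its library, so genes of different length can be compared. Between 14899922 and 23740219 reads per library were assigned to genes.

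Plants spin cellulose at the plasma membrane, where complexes of cellulose synthase catalytic subunits (the A family, CESA) polymerise glucose from UDP-glucose into chains that join into microfibrils. In Arabidopsis, different CESA subunits serve the primary wall of growing cells and the secondary wall of xylem. The RING-type zinc finger near the start of these proteins is shared, in Arabidopsis, by the cellulose synthase-like D family. Other cellulose synthase-like families make the backbones of hemicelluloses in the Golgi: in Arabidopsis the A family makes mannans and the C family the glucan backbone of xyloglucan. Fruits grow by cell division and then by expansion, both of which need new wall.

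Of the 42 genes, 31 averaged 1 FPKM or more across the 6 libraries and were tested, and 11 did not reach that level. The gene nearest below this bound was the CESA-named Csa2G070320, with a mean of 0.984 FPKM, and the nearest above was Csa2G416250, with 1.33 FPKM, which reached it through peel. A group of 4 untested genes had 0 reads in every library, which allows up to 3 reads in each. The other 7 untested genes had between 1 and 539 reads in all. The summed level of the 42 genes was 917, 1128 and 1034 FPKM in peel at days 3, 6 and 9, against 806, 993 and 1561 FPKM in flesh. The genes named synthase made up 54.2%, 62.7% and 70.9% of that sum in peel, against 70.9%, 75.9% and 60.0% in flesh.

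**Figure D1:**
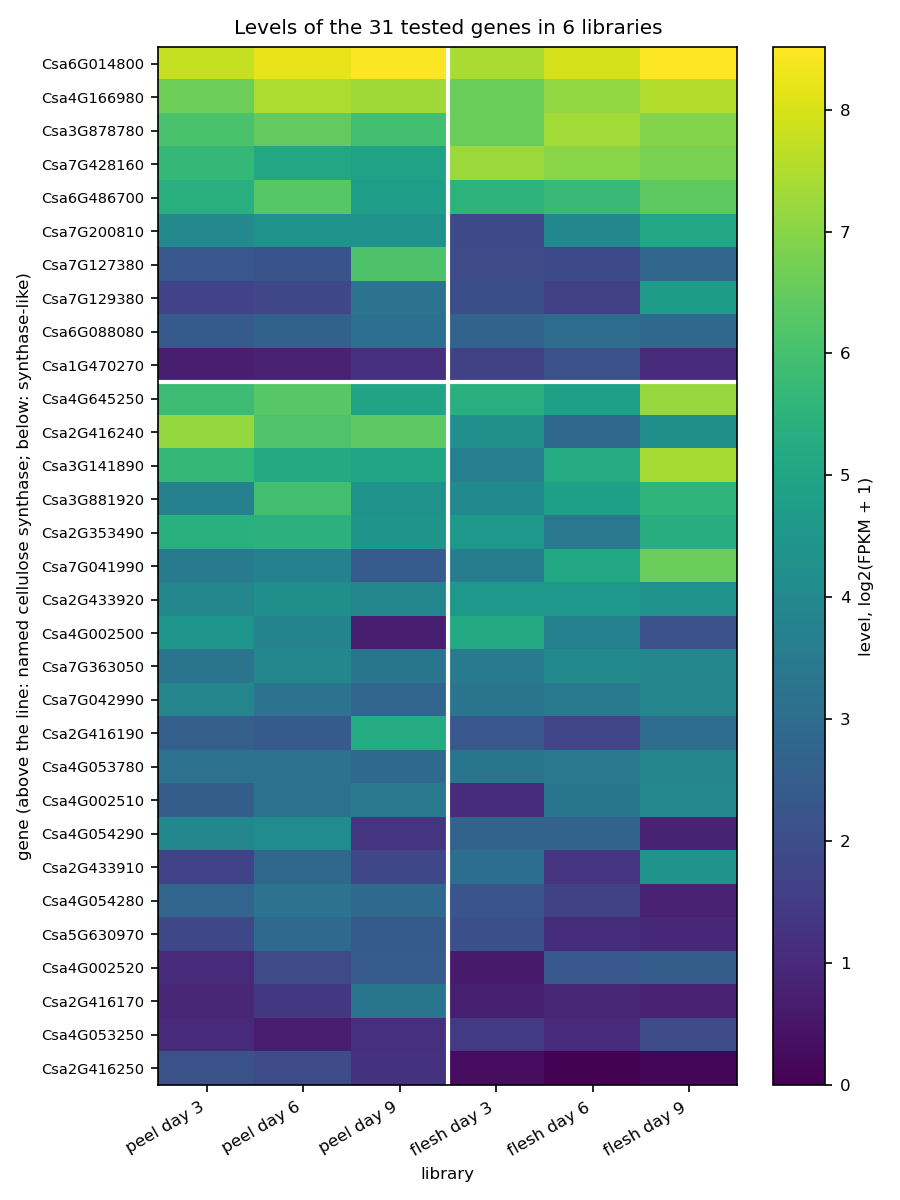
Level of each of the 31 tested genes, as log2(FPKM + 1), in the 3 peel and the 3 flesh libraries, with the named cellulose synthases above the white line and the synthase-like genes below it. Csa6G014800 was the highest of all 42 genes in every library, and a few genes were high in 1 library only, such as Csa7G127380 in peel at day 9.

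A few facts of the series bear on what follows. The day 9 peel library stood apart from the others on the leading principal component, at 124 against -79.6 to 36.6 for the other 5. Markers of the cuticle, which the epidermis makes, were higher in peel at every day: their summed level over 21 genes was 289, 389 and 806 FPKM in peel, against 162, 92.9 and 90.5 FPKM in flesh at days 3, 6 and 9. The 21 genes named for the phloem, the tissue that carries sugars, summed to 12128, 8692 and 14604 FPKM in peel, against 1245, 4688 and 17840 FPKM in flesh. None of the cuticle and phloem genes was at 0 in all libraries. In bulk tissue, fewer cells of a type and less RNA per cell cannot be told apart.

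The 5 most abundant named synthases accounted for most of the synthase transcript in every library. They made up 94.6%, 95.4% and 85.3% of the summed FPKM of the 12 named synthases in peel at days 3, 6 and 9, and 97.0%, 95.8% and 92.3% in flesh. All but Csa6G014800 carry both the synthase domain and the RING-type zinc finger, and Csa6G014800 is listed with the synthase domain but without that zinc finger.

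Csa6G014800 (chromosome 6, 1754842 to 1760377) had 214, 301 and 354 FPKM in peel at days 3, 6 and 9, and 173, 246 and 364 FPKM in flesh. Its level ranked first among the 42 genes in each of the 6 libraries, was higher at each later day in both tissues, and the tissues overlapped. Csa4G166980 (chromosome 4, 8653473 to 8659384), the next by mean level, had 98.2, 175 and 157 FPKM in peel, against 94.9, 138 and 183 FPKM in flesh. These levels lay close together in the 2 tissues, with peel minus flesh differences in log2(FPKM + 1) of 0.19 ± 0.19 (SE) for Csa6G014800 and 0.05 ± 0.19 for Csa4G166980. For day 9 minus day 3 the log2 differences were 0.90 ± 0.23 (limma adjusted p = 0.117) for Csa6G014800 and 0.80 ± 0.24 (limma adjusted p = 0.144) for Csa4G166980. Csa6G486700 (chromosome 6, 22552038 to 22558749) had 40.4, 78.0 and 26.5 FPKM in peel, beside 44.6, 51.8 and 83.2 FPKM in flesh, so that its order between the tissues differed from day to day. Its deposited locus is shared with another gene, and reads may belong to either.

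Of these 5 genes, 2 were lower in peel than in flesh at every day. Csa7G428160 (chromosome 7, 16448013 to 16454565) had 50.4, 33.5 and 28.7 FPKM in peel, against 148, 127 and 112 FPKM in flesh. The highest peel value was below the lowest flesh value. At the single days it was 2.94-fold, 3.79-fold and 3.89-fold lower in peel than in flesh. Its log2 difference, peel minus flesh, was -1.78 ± 0.17 (SE), and the limma adjusted p of 0.0514 missed the threshold of 0.05, while edgeR on the recovered reads gave an adjusted p of 0.0445. Csa3G878780 (chromosome 3, 36897925 to 36904403) had 66.5, 87.6 and 59.9 FPKM in peel, against 94.0, 159 and 122 FPKM in flesh, again without overlap. Its log2 difference was -0.79 ± 0.19 (SE; limma adjusted p = 0.111).

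The make-up of the named synthases can also be read within each library, where no scaling between libraries enters. Csa7G428160 made up 10.1%, 4.74% and 3.91% of their summed FPKM in peel, against 25.9%, 16.8% and 11.9% in flesh. Its share was lower at each later day in both tissues. Csa6G014800 made up 43.2%, 42.6% and 48.3% in peel, against 30.2%, 32.6% and 38.9% in flesh, and the tissues did not overlap. The shares were not tested.

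**Figure D2:**
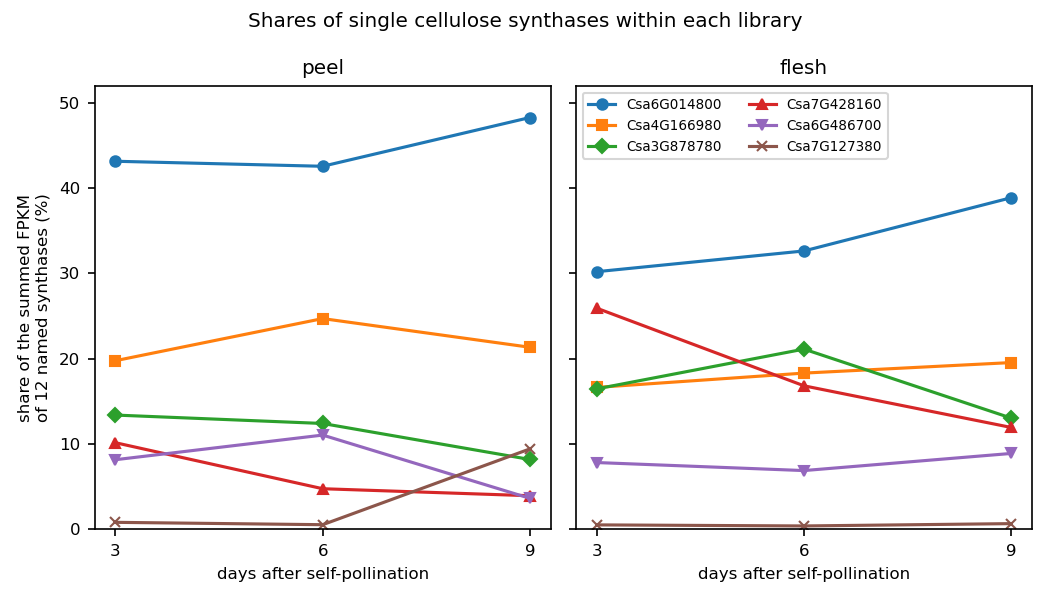
Share of 6 genes in the summed FPKM of the 12 named cellulose synthases, in percent, by day, in peel (left) and flesh (right), with 1 library per point. Csa6G014800 held the largest share in every library and Csa7G428160 a larger share in flesh than in peel, while Csa7G127380 reached 9.41% in peel at day 9 and was at most 0.792% elsewhere.

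The other 7 named synthases were far less abundant. The genes with a letter, Csa1G470270 (A1) and Csa2G070320 (A), stayed at or below 3.37 and 1.97 FPKM in every library. Csa7G029410 had 24 reads over the 6 libraries. Csa6G088080, whose locus is also shared, lay between 4.31 and 7.69 FPKM. The remaining 3, Csa7G127380, Csa7G129380 and Csa7G200810, carry the synthase domain without the RING-type zinc finger, and each differed over 12-fold between its highest and lowest library. They are described with the days below.

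Peel and flesh were compared over the 3 days for the whole table, the days being the only replication of the tissue difference. limma called 0 of the 31 tested genes, where 0.261% of all 17265 tested genes were called. At an unadjusted p under 0.05 there were 7 of 31, or 22.6%, beside 25.3% of all tested genes, with 4 higher and 3 lower in peel. On the recovered reads edgeR called 2 of 31 (1.45% of all tested genes) and DESeq2 6 of 31 (17.3%). The median log2 difference was -0.13, beside -0.03 over all tested genes, and turned to 0.22 without either day 9 library. In 4 genes all peel values lay above all flesh values and in 4 all lay below, which is 12.9% each, beside 11.8% and 12.8% of all tested genes. Both shares lay near those of the whole table. Of the 4 with peel above flesh, Csa2G416170 and Csa2G416250 reached the mean of 1 FPKM only through peel, so the filter bears on that count. Csa2G416250 is also among the 4 higher in peel at an unadjusted p under 0.05.

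Among the synthase-like genes, the clearest peel excess was that of Csa2G416240 (chromosome 2, 21528472 to 21536834), the second most abundant of them by mean level. It had 144, 71.0 and 81.9 FPKM in peel, against 18.5, 6.12 and 17.9 FPKM in flesh. It was the highest synthase-like gene in peel at days 3 and 9, and its lowest peel level was above its highest flesh level. The ratio of peel to flesh was 7.78, 11.6 and 4.58 at days 3, 6 and 9. The log2 difference was 2.79 ± 0.28 (SE; limma adjusted p = 0.0524, edgeR adjusted p = 0.0452). Without the day 9 peel library it was 3.12. The cuticle genes were higher in peel as well, with a positive log2 difference in 14 of 16 tested genes, beside 47.6% of all tested genes. Their median was 2.60, beside -0.03 over all tested genes, and their part in the difference of Csa2G416240 was not tested.

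Csa2G416240 lies in a run of 9 synthase-like genes on chromosome 2, between 21462682 and 21561090, in which no more than 1 other gene separates neighbours. The positions are those of the table, and the genome build behind them was not stated. Of the 9, 8 carry the synthase domain and 1, Csa2G416210, is named H1, after a family known from grasses to make mixed-linkage glucan. In this run 5 genes had fewer than 10 reads over all libraries, 2 of them none. The 4 that were tested were Csa2G416170, Csa2G416190, Csa2G416240 and Csa2G416250. Of these, Csa2G416170 and Csa2G416250 reached the mean of 1 FPKM only through peel, with means of 3.80 and 2.54 FPKM in peel, against 0.746 and 0.119 FPKM in flesh, so the direction of the tested genes is partly set by that filter and no count of it is given.

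Next to Csa2G416240, Csa2G416250 had 3.34, 2.91 and 1.36 FPKM in peel, against 0.222, 0.0311 and 0.104 FPKM in flesh. The flesh values rested on 15, 2 and 5 reads. Its log2 difference of 1.62 ± 0.34 (SE; limma adjusted p = 0.0954) understates the change at such low levels. At the other end of the run, Csa2G416190 had 4.98, 4.37 and 36.6 FPKM in peel, against 3.99, 2.43 and 7.22 FPKM in flesh. Csa2G416170, which shares its locus with another gene, had 0.899, 1.62 and 8.87 FPKM in peel, beside 0.661, 0.872 and 0.705 FPKM in flesh. Both were high in peel at day 9 alone, where the ratio of peel to flesh was 5.07 and 12.6. At days 3 and 6 peel was also above flesh, with ratios of 1.25 and 1.80 for Csa2G416190 and 1.36 and 1.85 for Csa2G416170. The gap between the tissues was thus large at every day in Csa2G416240 and Csa2G416250, and at day 9 alone in these 2 genes.

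**Figure D3:**
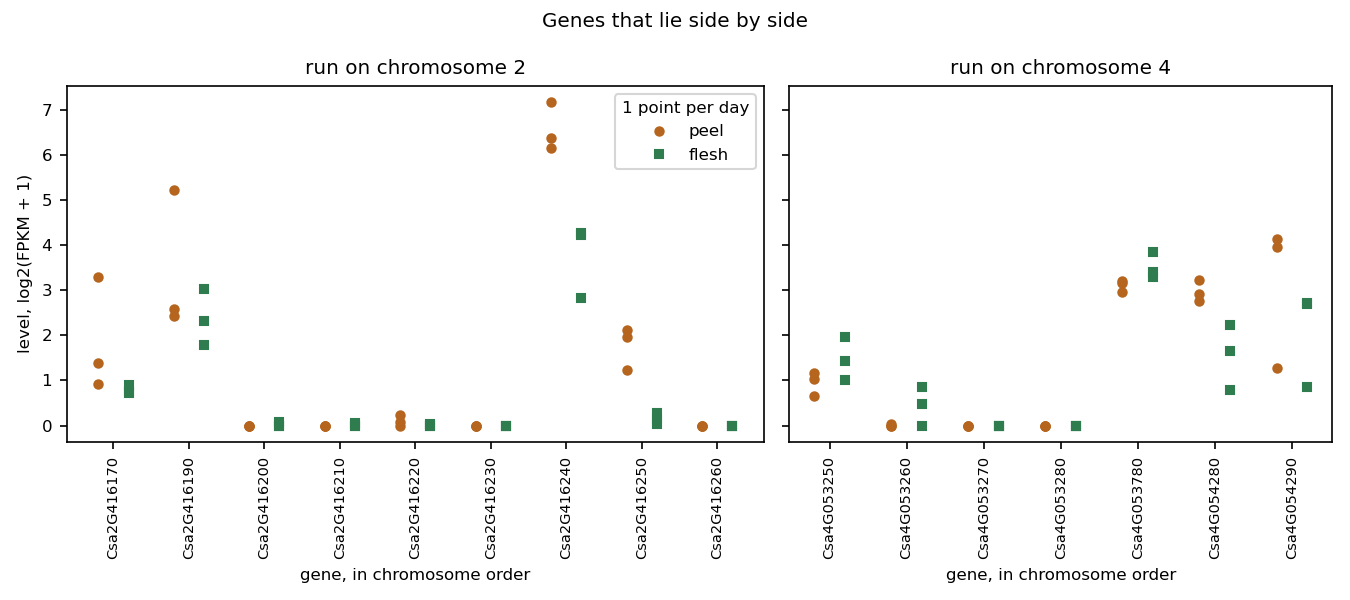
Level as log2(FPKM + 1) of the genes in the run of 9 on chromosome 2 (left) and the run of 7 on chromosome 4 (right), in chromosome order, with 1 point per day for peel (circles) and flesh (squares). Expressed genes and genes at or near 0 stand side by side, and Csa2G416240 is the highest gene of both runs.

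A second run, of 7 synthase-like genes, lay on chromosome 4 between 4489715 and 4538758, all with the synthase domain. It held 2 genes with 0 reads and Csa4G053260, whose 79 reads were 78 from flesh at days 3 and 6 and 1 from peel at day 9. Csa4G053780 was the most even of the run, with 8.22, 7.94 and 6.77 FPKM in peel, against 8.84, 9.69 and 13.5 FPKM in flesh. Csa4G054280 was higher in peel at every day, at 5.80, 8.42 and 6.55 FPKM against 3.72, 2.16 and 0.728 FPKM in flesh. The gap widened with the days, the ratio of peel to flesh being 1.56, 3.90 and 9.00. Its log2 difference, peel minus flesh, was 1.41 ± 0.37 (SE; limma adjusted p = 0.128). Its neighbour Csa4G054290 had 14.6, 16.6 and 1.43 FPKM in peel, against 5.60, 5.45 and 0.804 FPKM in flesh, with a low level at day 9 in both tissues.

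In all, 25 of the 42 genes lay in 6 such runs and 17 lay alone. The runs held 8 of the 11 untested genes. Near-identical neighbours may share reads, since the counting of the authors could split them, and how alike these genes are was not measured here.

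**Figure D4:**
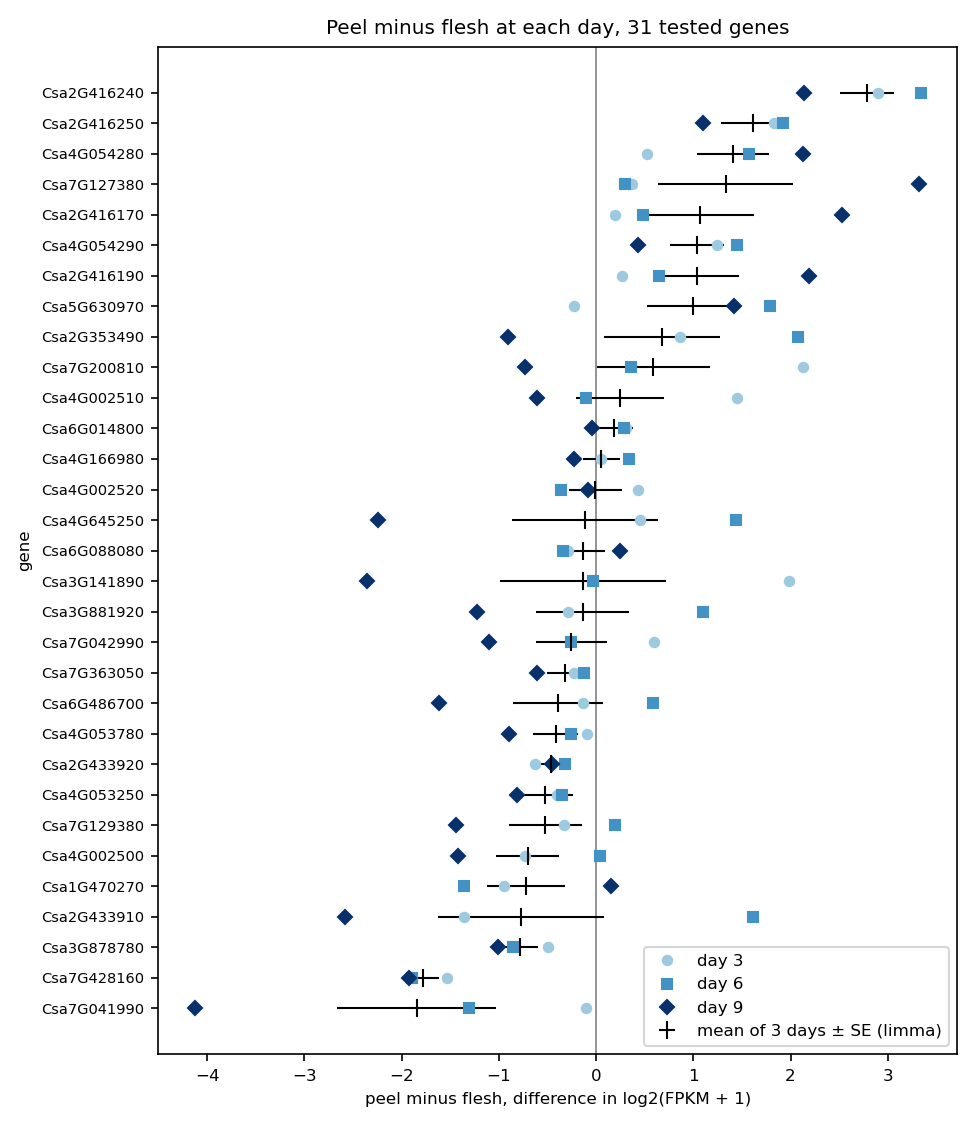
Difference in log2(FPKM + 1), peel minus flesh, for each of the 31 tested genes at days 3, 6 and 9 (symbols), with the mean of the 3 days and its standard error from limma (bars). Symbols of Csa2G416240 all lie right of 0 and those of Csa7G428160 all lie left, while those of Csa3G141890, Csa4G645250 and Csa2G433910 lie on both sides.

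The days were then taken singly, with 1 library per tissue and no test. At day 3, 2 of the 31, Csa2G416240 and Csa7G200810, had peel above flesh by 4-fold or more on the log2(FPKM + 1) scale, beside 2.66% of all tested genes, and 0 had peel below flesh by as much (0.822%). Both directions together covered 3.48% of all tested genes. At day 6 there were again 2 higher in peel, Csa2G416240 and Csa2G353490 (5.09% of all tested genes), and 0 lower (2.06%, or 7.15% in either direction). At day 9 there were 5 higher (7.03%) and 4 lower (3.94%), so that 9 of 31, or 29.0%, were past 4-fold in either direction, beside 11.0% of all tested genes. Of the 5, Csa2G416170 passed the filter at a mean of 1 FPKM only through the day 9 peel library, which also gives it the 4-fold difference. The median size of the difference, without its sign, was 1.10 log2 units at day 9, beside 0.52 over all tested genes, and 0.45 at day 3, beside 0.31. With a pseudocount of 5 the day 9 count was 4, beside 5.61% of all tested genes. With a pseudocount of 0.1 the count was 5 at day 3, beside 5.95%, and 6 at day 6, beside 10.9%.

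At day 9 the 5 genes at least 4-fold higher in peel were Csa2G416170, Csa2G416190, Csa2G416240, Csa4G054280 and Csa7G127380. Csa7G127380 (chromosome 7, 5953231 to 5957223), named a putative cellulose synthase, had 3.94, 3.64 and 69.1 FPKM in peel, beside 2.81, 2.77 and 6.01 FPKM in flesh. The day 9 peel value was 11.5 times that of flesh at the same day and 17.6 times that of peel at day 3. Its neighbour Csa7G129380, also a putative synthase, had the opposite order at day 9, with 2.28, 2.50 and 8.47 FPKM in peel against 3.11, 2.04 and 24.8 FPKM in flesh. This pair of neighbours was highest on the same day but in different tissues. Csa7G127380, Csa2G416170 and Csa2G416190 rest on the day 9 peel library, which stood apart from the rest. Without it, the day 9 minus day 3 difference of Csa7G127380 was 0.86 in place of 2.35 and that of Csa2G416190 was 0.82 in place of 1.69, on the log2 scale. Without the day 9 flesh library these differences were 3.85 for Csa7G127380 and 2.56 for Csa2G416190, and that of Csa2G416190 was 1.11 without the day 3 peel library. The peel minus flesh difference of Csa2G416170 was 0.34 without the day 9 peel library, in place of 1.07. The cuticle genes were at their highest sum in the same library, 806 FPKM, and their part in these levels was not tested.

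The 4 genes at least 4-fold lower in peel at day 9 were the synthase-like genes Csa2G433910, Csa3G141890, Csa4G645250 and Csa7G041990. All 4 had their highest level in flesh at day 9. Csa3G141890 (chromosome 3, 9345195 to 9350489) had 49.9, 35.6 and 30.9 FPKM in peel, against 11.9, 36.4 and 162 FPKM in flesh. Its FPKM was 4.19-fold higher in peel at day 3 and 5.26-fold lower in peel at day 9. Csa4G645250 (chromosome 4, 21740469 to 21743577), the most abundant synthase-like gene by mean level and one of 6 genes listed without the synthase domain, had 55.5, 77.4 and 30.3 FPKM in peel, against 40.3, 27.9 and 147 FPKM in flesh.

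Csa7G041990 (chromosome 7, 2316188 to 2319208) was at 10.4, 12.5 and 4.42 FPKM in peel, against 11.2, 32.2 and 93.8 FPKM in flesh. The values lay close together at day 3, and at day 9 the gene was 21.2-fold lower in peel than in flesh. Its neighbour Csa7G042990 had 13.8, 8.53 and 5.88 FPKM in peel, beside 8.77, 10.4 and 13.8 FPKM in flesh. Csa2G433910, which carries the RING-type zinc finger, had 2.29, 6.42 and 2.51 FPKM in peel, against 7.43, 1.42 and 20.0 FPKM in flesh. The gene beside it, Csa2G433920, with the same domains, varied 1.61-fold at most among the 6 libraries. It was at 14.0, 17.8 and 14.0 FPKM in peel, against 22.1, 22.4 and 19.6 FPKM in flesh, with every peel value below every flesh value.

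Whether the course over the days differed between the tissues was tested as the difference in slope per day. limma and edgeR each called 0 of the 31 genes, and each called 0 of all 17265 (0%). At an unadjusted p under 0.05 edgeR found 6 of 31, beside 8.27% of the table. At an unadjusted p under 0.05 limma found 7 of 31, or 22.6%, beside 8.72% of all tested genes, 5 with a lower slope in peel and 2 with a higher one. Of these 2, Csa2G416170 passed the filter at a mean of 1 FPKM only through the day 9 peel library. Of the 31 genes, 23 had a lower slope in peel, or 74.2%, beside 52.8% of all tested genes. Without the day 9 peel library, 17 of 31 had a lower slope in peel, and 2 lower and 3 higher were at an unadjusted p under 0.05 (3.88% of all tested genes in either direction). Without the day 9 flesh library, 19 of 31 had a lower slope in peel, and 4 were at that p, all lower (6.28%). DESeq2 called 3 of 31 (2.11% of all tested genes), all with a lower slope in peel. These were Csa3G141890, Csa7G041990 and the putative synthase Csa7G200810.

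The slope of Csa3G141890 in peel minus that in flesh was -0.72 ± 0.09 log2 units per day (SE; limma adjusted p = 0.342, DESeq2 adjusted p = 2.2e-07). That of Csa7G041990 was -0.67 ± 0.12 (limma adjusted p = 0.342). Csa7G200810 (chromosome 7, 7175979 to 7181787) was at 15.2, 19.3 and 19.8 FPKM in peel, beside 2.70, 14.9 and 33.5 FPKM in flesh, with a slope difference of -0.48 ± 0.10 (limma adjusted p = 0.359). The slope difference of Csa7G041990 was -0.41 without the day 9 peel library, and that of Csa7G200810 was -0.31 without the day 3 flesh library. In each of these 3 genes the flesh level was higher at each later day, while the peel level stayed within a 3-fold range. The phloem genes had the same order, with a summed level of 1245, 4688 and 17840 FPKM in flesh. Their median slope difference was -0.43, and 14 of their 15 tested genes were negative, beside 52.8% of all tested genes. Their part in the course of these synthase genes was not tested. A secondary wall list took genes named for xylem, secondary wall or fasciclin-like arabinogalactan proteins, some of which mark secondary walls. It summed to 616, 788 and 602 FPKM in peel, against 830, 1492 and 1333 FPKM in flesh.

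**Figure D5:**
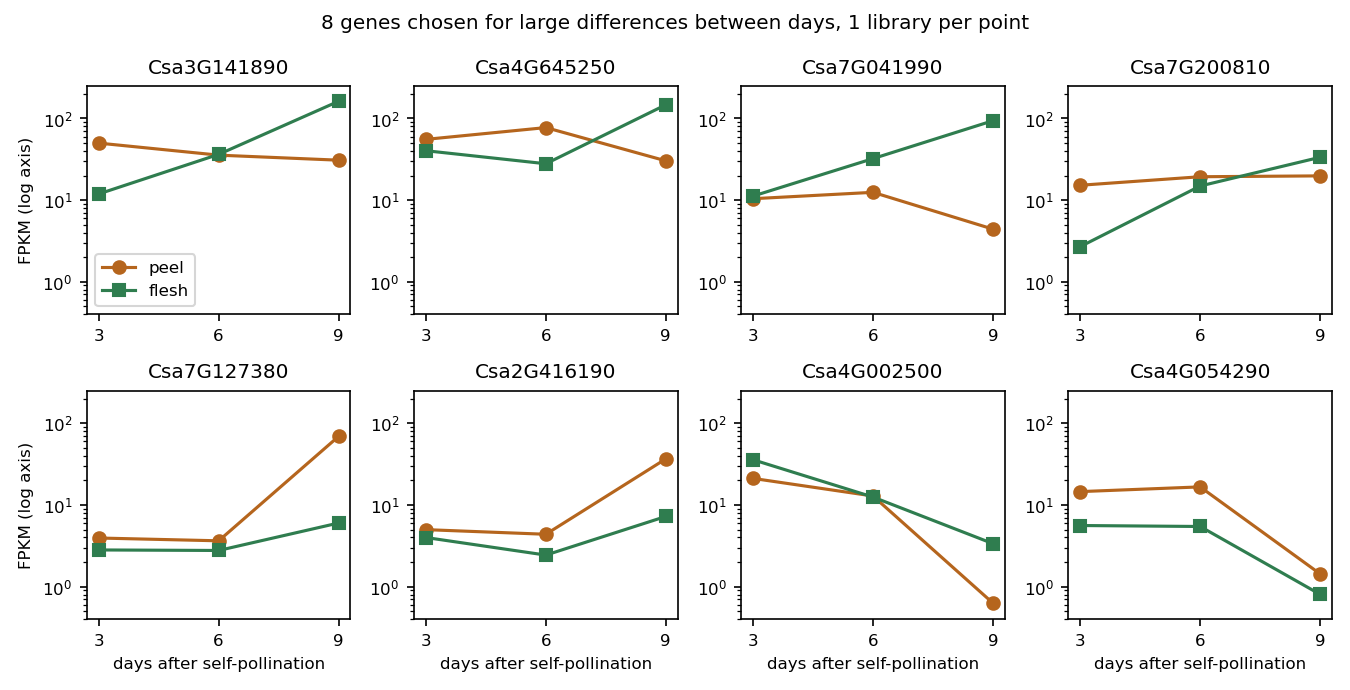
FPKM (log axis) at days 3, 6 and 9 in peel (circles) and flesh (squares) of 8 genes, chosen after their values were seen, with 1 library per point. In the upper row flesh ends above peel at day 9, and in the lower row 2 genes are highest in peel at day 9 and 2 are lowest at day 9 in both tissues.

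Day 9 was set against day 3 over both tissues, the tissues being the only replication. limma called 0 of the 31 genes and 0 of all 17265 (0%). At an unadjusted p under 0.05 there were 10 of 31, or 32.3%, beside 24.9% of all tested genes, with 7 higher and 3 lower at day 9. edgeR called 0 of 31 (0.145% of the table), 9 of them having p under 0.05 before adjustment, beside 25.1% of the table, and DESeq2 9 of 31 (16.4%). The median log2 difference was 0.34, beside 0.01 over all tested genes. An upper-quartile rescaling moved the median of all tested genes to -0.13 and that of the 31 genes to 0.24, which left 0.37 between them. Without the day 9 flesh library the median of the 31 genes was -0.056.

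Within peel, 3 of the 31 genes exceeded their day 3 level by 4-fold or more at day 9 (5.20% of all tested genes) and 2, Csa4G002500 and Csa4G054290, lay below it by as much (4.63%, or 9.83% in either direction). Within flesh there were 5 higher (3.40%) and 1 lower (3.06%, or 6.46% in either direction). The 3 in peel were Csa2G416170, Csa2G416190 and Csa7G127380, given above. The day 9 peel library is also what brought Csa2G416170 past the filter. The 5 in flesh were Csa3G141890, Csa7G041990, Csa7G200810, Csa7G129380 and Csa4G002510. The ratio of day 9 to day 3 in flesh was 13.6 for Csa3G141890 and 12.4 for Csa7G200810. The median in flesh was 0.59, beside -0.01 over all tested genes, and in peel 0.09, beside -0.02. After upper-quartile rescaling the peel median was -0.02, beside -0.16 over all tested genes.

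The run of 3 genes on chromosome 4 between 568444 and 588366 held opposite courses side by side. Csa4G002500, the only one of the 3 with the RING-type zinc finger, had 21.1, 12.9 and 0.629 FPKM in peel, against 35.8, 12.5 and 3.36 FPKM in flesh. It was lower at each later day in both tissues, and its day 9 minus day 3 log2 difference was -3.42 ± 0.40 (SE; limma adjusted p = 0.0569). Csa4G002510, next to it, had 4.73, 8.15 and 9.53 FPKM in peel, beside 1.10, 8.84 and 15.0 FPKM in flesh. Csa4G002520 had 1.06, 2.87 and 4.44 FPKM in peel, against 0.534, 3.99 and 4.77 FPKM in flesh. Both were higher at each later day in both tissues, with log2 differences of 1.91 ± 0.55 (limma adjusted p = 0.140) and 1.66 ± 0.33 (limma adjusted p = 0.0845). That of Csa4G002510 was 1.00 without the day 3 flesh library and 1.27 without the day 9 flesh library.

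The 3 genes with a lower level at day 9 at an unadjusted limma p under 0.05 were Csa4G002500, Csa4G054290 and the named synthase Csa7G428160. In Csa4G054290, of the run of 7, the day 9 minus day 3 log2 difference was -2.27 ± 0.34 (SE; limma adjusted p = 0.0615). In Csa7G428160, whose levels are given with the named synthases, it was -0.60 ± 0.21 (limma adjusted p = 0.187). The share of the photosynthesis genes in the RNA also marks how green the tissue is. Their median day 9 minus day 3 difference was -1.05. Of their 44 tested genes, 2 were higher at day 9, beside 50.4% of all tested genes. Their summed level was 3493, 2163 and 1280 FPKM in peel, against 3495, 3290 and 2466 FPKM in flesh, and their part in the low day 9 levels was not tested.

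By listed domain, the direction of the tissue difference was as follows. Of the 9 tested genes with the RING-type zinc finger, 8 had a negative peel minus flesh difference, with a median of -0.70 log2 units. Of the 17 tested genes with the synthase domain alone, 7 were negative, with a median of 0.25, and of the 5 tested genes with neither domain, 3 were negative. Over all tested genes 52.4% were negative, with a median of -0.03. The filter at a mean of 1 FPKM bears on these directions. Among the genes with the synthase domain alone, Csa2G416170 and Csa2G416250 passed it only through peel, and Csa4G053250 only through flesh. Among those with the RING-type zinc finger, Csa1G470270 passed it only through flesh. These are descriptions of small groups, and the difference between them was not tested. The C-family gene Csa5G630970 (C1-2) and the gene Csa2G353490 are among those with neither domain. Csa5G630970 had 2.60, 6.49 and 4.30 FPKM in peel, against 3.23, 1.16 and 0.983 FPKM in flesh. Csa2G353490 had 41.5, 43.7 and 20.3 FPKM in peel, beside 22.4, 9.61 and 38.9 FPKM in flesh, and was 4.55-fold higher in peel at day 6. Csa3G881920 had 12.4, 60.9 and 19.5 FPKM in peel, against 15.4, 27.8 and 47.0 FPKM in flesh, so that peel was highest at day 6 and flesh at day 9.

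Other genes of the same wall were listed by product name. Of 37 genes matched by name as partners of cellulose synthesis (names such as COBRA, endoglucanase and sucrose synthase), 22 were tested. For peel against flesh limma called 0 of them, beside 0.261% of all tested genes. Without adjustment, 2 had a higher and 3 a lower level in peel at p under 0.05, beside 25.3% of all tested genes in either direction. The median was -0.28. COBRA protein Csa1G015710, of a family known in Arabidopsis to orient microfibrils, had 102, 160 and 166 FPKM in peel, against 117, 187 and 248 FPKM in flesh, lower in peel at each day. The most abundant tested gene of this list, Csa3G150000, is named a xyloglucan-specific endoglucanase inhibitor and entered it only through the word endoglucanase. It had 142, 128 and 933 FPKM in peel, beside 58.6, 3.60 and 32.8 FPKM in flesh. Of 34 hemicellulose genes under other names, which include xylanases that cut such chains, 22 were tested and limma called 0. Without adjustment, 4 were higher in peel and 1 lower at p under 0.05, beside 25.3% of all tested genes. Their median was 0.26. Their most abundant gene, mannan synthase Csa6G150530, had 77.3, 65.7 and 131 FPKM in peel, against 79.0, 124 and 144 FPKM in flesh.

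Callose synthases make a different glucan, the sealing polymer of sieve plates and of new cell plates. Of 16, 14 were tested and limma called 0 for peel against flesh, beside 0.261% of all tested genes. Unadjusted limma p was under 0.05 in 1 higher in peel and 4 lower, beside 25.3% of all tested genes. The median was 0.11. Csa1G605110 had 58.2, 54.3 and 41.0 FPKM in peel, against 97.0, 76.1 and 85.4 FPKM in flesh. Csa1G002710 went the other way, with 47.2, 49.9 and 146 FPKM in peel, against 39.1, 38.2 and 36.2 FPKM in flesh. For day 9 against day 3 and for the difference in slope limma called 0 genes of these 3 lists. For day 9 against day 3 their medians were -0.01 for the partners, 0.14 for the hemicellulose genes and 0.36 for the callose synthases. Without adjustment, limma p was under 0.05 in 5 of the 22 partners (2 of them higher at day 9), in 10 of the 22 hemicellulose genes (8 higher) and in 3 of the 14 callose synthases (2 higher), beside 24.9% of all tested genes. Over all tested genes, limma called 0.261% for peel against flesh, in either direction. Among the markers of other cell types, it called 2 of the 16 tested cuticle genes higher in peel. It called 0 of the 15 phloem genes, the 44 of photosynthesis and the 15 of the secondary wall list. The seed list, 26 tested genes that are largely late embryogenesis abundant proteins, had 1 called lower in peel and a median of -0.18. The median of the secondary wall list was -0.83, that of the phloem genes 0.87 and that of photosynthesis -0.30.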

How the data were processed

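Total RNA of dissected peel and flesh was sequenced in 6 libraries. The submitters' processing notes name TopHat, without a version, and Cufflinks 2.1.1. The build, the gene models and whether strand was used in counting were not given in the sources used here. The deposited FPKM values, scaled by the authors per the file headers, were used unchanged. The deposited count columns were not whole and were treated as a signal that the authors had scaled: dividing by the smallest step gave whole reads for 99.7% to 99.9% of values, within 0.05 of a whole number.

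limma 3.58.1 (R 4.3.3) was run on log2(FPKM + 1) for the 17265 genes that averaged 1 FPKM or more, with tissue and day as a factor, an intensity trend and Benjamini-Hochberg adjustment over all of them, two-sided, at 0.05. Slopes came from an interaction of tissue with numeric day. Each fit left 2 residual degrees of freedom. With no second library in a group, the error of the tissue and day comparisons is the departure of days from a common tissue difference, or of tissues from a common course. In the slope test it is the departure of the days from a straight line within each tissue. The p-values measure only these departures. A log2 difference on this scale understates the change of low genes. Differences within 1 day or 1 tissue were counted at 4-fold, without a test. edgeR 4.0.16 (quasi-likelihood) and DESeq2 1.42.0 were run on the recovered reads. The fits were also run on simulated data with known differences and the same noise setting for every gene. Such data cannot show whether the p-values hold for these libraries.

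Values were printed for the 8 genes with the highest mean, those called, and those 4-fold apart between tissues at any day or between days 3 and 9 with at least 5 FPKM in the higher library, 20 in all; values of other genes were added once seen. The genes and lists were chosen with earlier results of these data known. The grouping by listed domains and by neighbouring genes was made after the data were seen. Tried as alternatives were upper-quartile rescaling, pseudocounts of 0.1 and 5, a filter at 5 FPKM or none, no trend, numeric day, no day or tissue term, and leaving out each library. None of the 42 identifiers (0) matched the separate RefSeq gene table, so no sequence is shown. Of the 42 genes, 3 are among the 1023 genes of the table whose deposited locus is shared with another gene. Intervals of single values would cover counting error only and are not given.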

Additional observations from a re-analysis of the deposited data

Results flagged for a closer look

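In 4 synthase-like genes the peel minus flesh difference in log2(FPKM + 1) was at least 1 at a single day and -1 or lower at another, each day having 1 library per tissue. In Csa3G141890 it was 1.98 at day 3 and -2.36 at day 9. In Csa2G433910 it was 1.62 at day 6 and -2.58 at day 9. In Csa4G645250 it was 1.44 at day 6 and -2.24 at day 9. In Csa3G881920 it was 1.10 at day 6 and -1.23 at day 9. These turns between single days were not tested. The test nearest to them, the difference in slope over all days, had a limma adjusted p of 0.342 in Csa3G141890, 0.946 in Csa2G433910, 0.696 in Csa4G645250 and 0.943 in Csa3G881920. In Csa7G041990 day 9 minus day 3 was -1.07 in peel and 2.96 in flesh, with a limma adjusted p of 0.342 for the difference in slope. As given, all 5 of these use the day 9 libraries. The difference of Csa2G433910 was also -1.36 at day 3, so its turn between days 3 and 6 does not rest on day 9.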

How the results depend on the processing

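For peel against flesh, the 0 genes called by limma became 2 with a pseudocount of 0.1 (0.967% of all tested genes), 2 with day as a number (2.75%), 2 in edgeR (1.45%) and 6 in DESeq2 (17.3%) on the recovered reads; the 2 were Csa2G416240 and Csa7G428160 in each of the first 3. For day 9 against day 3 DESeq2 called 9 (16.4%), and for the difference in slope 3 (2.11%), against 0 in limma. Leaving out each library gave 0 calls among these genes and among all 17265 genes in all 3 comparisons, with 1 residual degree of freedom, and so says nothing of stability. It gave medians of -0.36 to 0.22 for peel against flesh and of -0.056 to 0.55 for day 9 against day 3, the lowest without the day 9 flesh library. Genes at least 4-fold apart numbered 5 at day 3 and 6 at day 6 with a pseudocount of 0.1 (5.95% and 10.9% of all tested genes). With a pseudocount of 5 they numbered 1 at day 3 (1.18%), 1 at day 6 (3.16%) and 4 at day 9 (5.61%), and 3 between days 3 and 9 in peel (4.36%). The 24 single-gene differences with an unadjusted p under 0.05 kept their sign in all 355 alternatives run. They had been chosen by that p in the same data, and some alternatives, such as no trend, leave the estimate unchanged. Their sign therefore says nothing of stability. The labels give no replicate beyond 1 library per tissue and day, so peel and flesh could be paired only by day. Day was already a term of the tissue comparison. Without this block limma called 0 of these genes (0.695% of all tested genes), as it did for the days without the tissue term (0 of all tested genes). With 1 library per group, the variation between fruits cannot be estimated at any depth.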
